A study of Mus musculus with 4 samples.

Results

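The Schlafen family is a group of vertebrate genes named Slfn, and 7 of its mouse members were described here in bone marrow hematopoietic stem and progenitor cells (HSPCs): Slfn1, Slfn2, Slfn3, Slfn4, Slfn5, Slfn8 and Slfn9. The members were chosen by name, after their measured levels in these nuclei had been seen, so every level below is a description and none was tested. They are 7 of the 32272 genes in the matrix, and 39 of its 174339 peaks of open chromatin lie within 20 kb of the transcription start interval that the matrix gives for a member.

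The nuclei came from lineage-negative, cKit-positive bone marrow cells of young adult male C57BL/6 mice, either unligated (Ctrl) or with ligature-induced periodontitis (Lig) for 14 days. The marrow of several mice was pooled into 1 sample per group, so there were no replicate animals, and RNA and transposase-accessible chromatin (ATAC) were read from the same nuclei. In the matrix the 2 samples differ only by a barcode suffix, 1 or 2, which the labels assign to neither Ctrl nor Lig. The suffixes are called library 1 and library 2 and were put in no group, and no comparison of ligature with control was made.

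Schlafen proteins share an N-terminal core domain, and the longer members also carry a helicase-like domain. The genes are known as targets of type I interferon in immune cells, and several have been linked to quiescence or to the growth of lymphocytes and myeloid cells. Slfn2 is known for its part in T cell quiescence, from the elektra mouse mutation. Slfn1 and Slfn4 are short and intermediate members, whereas Slfn5, Slfn8 and Slfn9 are long members.

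After filtering, 5905 nuclei with 10294527 unique molecular identifiers (UMIs) remained in library 1 and 7714 nuclei with 12537328 UMIs in library 2. The ATAC totals were 118239764 and 128699726 counts in peaks. Clusters were made without the Schlafen genes and peaks, and 12 classes were named from marker genes, which left 7 clusters unnamed. The named classes hold 6641 nuclei and the unnamed clusters 6978, and a class called highest, lowest or leading is so among the 12 named classes. Both libraries held 146 barcode sequences in common, 72 of them among the kept nuclei. RNA levels are UMIs of the gene as counts-per-million of all UMIs (CPM), and accessibility is the same share of the ATAC counts in peaks (ATAC CPM), with exact 95% intervals that cover counting error only. The median library 2 to library 1 log2 ratio over genes of at least 1 CPM, with 1 CPM added to each level, was -0.52. It was -0.30 once 3 genes of the ribosomal RNA locus were left out of the totals.

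All 7 members lie on chromosome 11 of GRCm38 (mm10). Slfn5 occupies 82951349-82964840, Slfn1 83116849-83122670, Slfn2 83065112-83070678, Slfn4 83175186-83190216 and Slfn3 83191330-83215154 on the plus strand, and Slfn9 (82978390-82991830) and Slfn8 (83002158-83020810) are on the minus strand. All are protein coding in the GENCODE annotation.

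The start regions of Slfn1, Slfn2, Slfn4 and Slfn5 are shown because their RNA was highest in a myeloid class among the named classes of each library, and those of Slfn8 and Slfn9 because they are the most alike pair. Each runs from 250 bases before to 50 after the RefSeq start on GRCm38.p6, 5′ to 3′ on the strand of the gene. Capitals mark a match to an ETS core (AGGAAGT) or an interferon-stimulated response element core (ISRE core, GAAANNGAA), searched on both strands.
Slfn1: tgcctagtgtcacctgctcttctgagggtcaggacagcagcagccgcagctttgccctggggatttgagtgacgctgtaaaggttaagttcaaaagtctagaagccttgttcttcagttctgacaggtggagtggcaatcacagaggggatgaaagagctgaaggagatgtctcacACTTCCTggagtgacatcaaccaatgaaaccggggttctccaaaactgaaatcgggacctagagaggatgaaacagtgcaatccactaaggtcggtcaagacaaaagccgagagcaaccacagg
Slfn2: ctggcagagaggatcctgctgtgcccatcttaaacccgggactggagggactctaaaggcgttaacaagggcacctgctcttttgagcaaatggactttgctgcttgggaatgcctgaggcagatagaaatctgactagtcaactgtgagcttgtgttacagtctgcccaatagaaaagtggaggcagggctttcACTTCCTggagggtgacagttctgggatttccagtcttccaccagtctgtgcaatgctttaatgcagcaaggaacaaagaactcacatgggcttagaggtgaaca
Slfn4: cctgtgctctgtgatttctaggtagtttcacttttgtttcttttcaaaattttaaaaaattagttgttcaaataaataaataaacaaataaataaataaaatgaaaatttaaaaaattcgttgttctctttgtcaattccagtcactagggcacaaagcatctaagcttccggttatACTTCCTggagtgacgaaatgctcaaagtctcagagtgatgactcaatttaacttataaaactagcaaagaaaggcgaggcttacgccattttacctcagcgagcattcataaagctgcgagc
Slfn5: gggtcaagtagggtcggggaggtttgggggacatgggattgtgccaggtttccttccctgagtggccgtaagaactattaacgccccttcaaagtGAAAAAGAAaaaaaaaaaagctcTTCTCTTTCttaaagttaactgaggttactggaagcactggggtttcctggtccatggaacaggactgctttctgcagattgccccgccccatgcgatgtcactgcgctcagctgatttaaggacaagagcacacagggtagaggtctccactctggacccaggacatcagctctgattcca
Slfn8: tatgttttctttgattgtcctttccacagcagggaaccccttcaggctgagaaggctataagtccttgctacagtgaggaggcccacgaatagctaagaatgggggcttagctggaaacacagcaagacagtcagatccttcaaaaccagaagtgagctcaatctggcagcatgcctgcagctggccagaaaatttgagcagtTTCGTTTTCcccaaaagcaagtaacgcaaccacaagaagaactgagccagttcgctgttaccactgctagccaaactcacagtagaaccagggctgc
Slfn9: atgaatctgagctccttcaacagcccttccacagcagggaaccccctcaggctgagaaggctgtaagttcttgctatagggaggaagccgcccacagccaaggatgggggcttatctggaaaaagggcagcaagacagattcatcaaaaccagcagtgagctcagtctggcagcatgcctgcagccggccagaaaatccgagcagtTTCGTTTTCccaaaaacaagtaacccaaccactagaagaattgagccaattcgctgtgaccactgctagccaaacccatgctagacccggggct
Slfn1 and Slfn4 share a run of 15 bases around their ETS match, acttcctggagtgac, and Slfn1 and Slfn2 share 12 bases, cacttcctggag. The Slfn8 and Slfn9 windows were identical at 246 of 295 aligned bases (83.4%), whereas the other pairs ranged from 47.9% to 63.5%. An ETS match was present in 4 of the 7 member promoters (Slfn1, Slfn2, Slfn3, Slfn4) and in 9.35% of all 32851 promoters, and an ISRE core in 3 (Slfn5, Slfn8, Slfn9) and in 8.56%. The ISRE matches of Slfn8 and Slfn9 have the same letters and lie in this alike pair of windows. Searched but not capitalized above, a gamma-activated site core (TTCNNNGAA) was present in 0 members and in 8.3% of all promoters. A C/EBP-type match (TTGCNNAA) was present in 2 members (Slfn2, Slfn3) and in 10.8%. These matches describe letters only.

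Slfn4 RNA was highest in the neutrophil precursor (NeuP)-like class, which was named from Ltf, Ngp, Lcn2, S100a8, S100a9, Camp and Mmp8. Of its 58 UMIs in library 1, 51 came from the 179 NeuP-like nuclei, and of its 64 UMIs in library 2, 44 came from 289 such nuclei. The level was 245 CPM (182 to 321) in library 1 and 107 CPM (77.7 to 144) in library 2. Over all other nuclei this was 352-fold (159 to 920) and 64.8-fold (37.4 to 116) higher. The class led in both libraries, and the 2 intervals of its level did not overlap. In library 1 the UMIs lay in 37 nuclei and in library 2 in 40 nuclei. Erythroid progenitor (EryP)-like nuclei, a class in which Slfn4 would be background, held 0 UMIs in 343 nuclei and 1 UMI in 337 nuclei, although their median depth of 1438 UMIs was above the 1120 UMIs of NeuP-like nuclei. Granulocyte-monocyte progenitor (GMP)-like nuclei held 3 and 8 UMIs, or 2.84 and 3.57 CPM. Slfn4 also led the NeuP-like cluster by fold although it had been left out of the clustered features.

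The NeuP-like class is made of shallow nuclei. Only 52 of its 468 nuclei (11.1%) had 500 or more genes, against 45.2% of all kept nuclei, and those 52 held 8 of the 95 Slfn4 UMIs. The Slfn4 fold over the other nuclei was then 48.4 (17.8 to 121), against 126 (81.5 to 201) with all nuclei. The ribosomal locus took 53.6% and 61.3% of NeuP-like UMIs in library 1 and library 2.

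**Figure D1:**
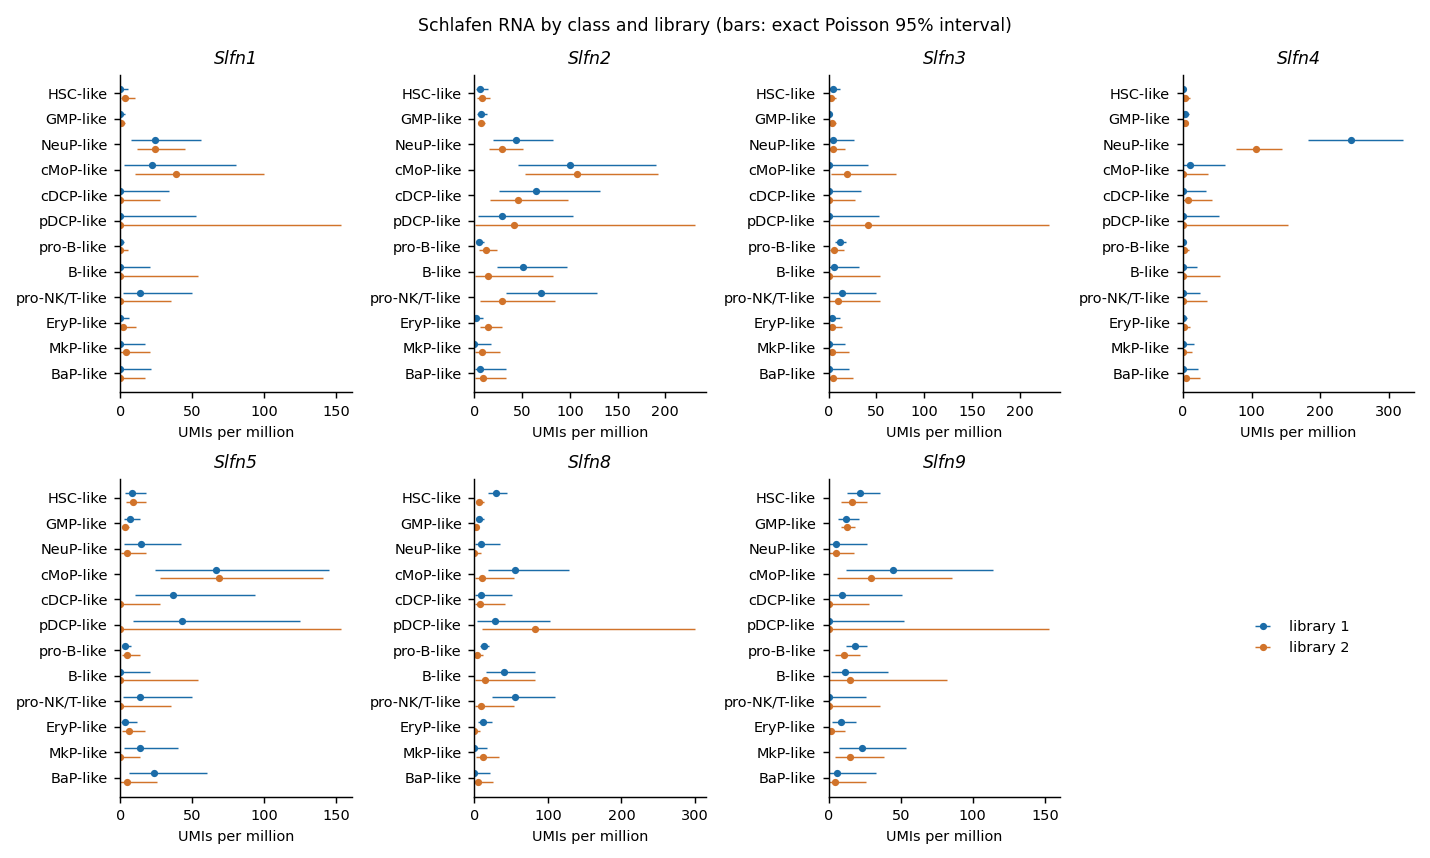
RNA of the 7 members in CPM (x axis) in the 12 named classes (y axis), with library 1 in blue and library 2 in orange; points are levels and bars are exact Poisson 95% intervals. Slfn4 stands at 245 and 107 CPM in NeuP-like nuclei, and Slfn2 is highest in cMoP-like nuclei.

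Slfn2 was highest in the common monocyte progenitor (cMoP)-like class, named from Ccr2, Fn1, Csf1r, Ly86 and F13a1. Its level there was 99.8 CPM (45.7 to 190) from 9 UMIs in library 1 and 107 CPM (53.5 to 192) from 11 UMIs in library 2. These levels were 10.2-fold and 9.81-fold above the other nuclei, with intervals of 4.53 to 20.1 and 4.78 to 18.1. Pro-NK/T-like nuclei stood at 69.4 and 28.9 CPM, conventional dendritic progenitor (cDCP)-like nuclei at 64 and 45.2 CPM, B-like nuclei at 51.1 and 14.7 CPM and NeuP-like nuclei at 43.1 and 29.2 CPM. Plasmacytoid dendritic progenitor (pDCP)-like nuclei stood at 28.5 and 41.5 CPM, from 2 UMIs and 1 UMI. The intervals of these 5 classes overlapped that of cMoP-like nuclei in each library, except for NeuP-like nuclei in library 2 (15.1 to 51), so the lead of cMoP-like nuclei over the other 4 was not resolved in either library, nor that over NeuP-like nuclei in library 1. Slfn2 was low in GMP-like nuclei, at 6.64 and 7.13 CPM, and in hematopoietic stem cell (HSC)-like nuclei, at 5.49 and 7.95 CPM.

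Slfn5, a nuclear long member, was also highest in cMoP-like nuclei in both libraries, at 66.6 CPM (24.4 to 145) and 68.3 CPM (27.4 to 141). This was 11.1-fold and 16.3-fold over the other nuclei, from 6 and 7 UMIs. In pDCP-like nuclei Slfn5 stood at 42.7 CPM (8.81 to 125) and in cDCP-like nuclei at 36.5 CPM (9.96 to 93.6) in library 1. Both classes held 0 UMIs in library 2, with intervals reaching 153 and 27.8 CPM. These intervals overlapped those of cMoP-like nuclei. So did, in library 1, those of NeuP-like (2.97 to 42), pro-NK/T-like (1.68 to 50.1) and basophil and megakaryocyte progenitor nuclei (6.42 to 60.4 and 2.84 to 40.3). In library 2 those of pro-NK/T-like and B-like nuclei, with 0 UMIs, reached 35.5 and 54.1 CPM. The lead of cMoP-like nuclei over these classes was not resolved there. Slfn5 in HSC-like nuclei stood at 8.24 and 9.09 CPM.

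Slfn1 was the rarest member, with 9 UMIs in library 1 and 25 in library 2. NeuP-like nuclei held 5 and 10 of them, at 24 CPM (7.78 to 55.9) and 24.3 CPM (11.7 to 44.7). The smaller cMoP-like class held 2 and 4, at 22.2 CPM (2.69 to 80.2) and 39 CPM (10.6 to 99.9), so the intervals of the 2 classes overlapped in each library. GMP-like nuclei held 0 and 2 UMIs, and pro-B-like nuclei 0 in both libraries. For these counts of 0 the exact 95% intervals reach 3.5 CPM in GMP-like nuclei of library 1. In pro-B-like nuclei they reach 2.4 CPM in library 1 and 5.62 CPM in library 2.

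Slfn8 differed between the libraries more than the other members of over 100 UMIs. It had 124 UMIs (12 CPM) in library 1 and 54 (4.31 CPM) in library 2, a log2 ratio of -1.48 (-1.97 to -1.01). The median over genes was -0.52, but with 1 CPM added to each level, which was not done for Slfn8. Class shares also differed, at 13.6% and 5.25% of nuclei for pro-B-like and 9.65% and 16.5% for GMP-like nuclei. Their part in the ratio was not tested. In HSC-like nuclei it stood at 28.8 CPM (17.9 to 44.1) in library 1 and 5.68 CPM (1.84 to 13.3) in library 2, and these intervals did not overlap. Pro-NK/T-like nuclei held 8 UMIs and 1 UMI, at 55.5 CPM (24 to 109) and 9.63 CPM (0.244 to 53.7), intervals that overlapped. The order was the other way in pDCP-like nuclei, at 28.5 and 83 CPM from 2 UMIs each, in MkP-like nuclei (a megakaryocyte progenitor class), at 0 and 11.2 CPM from 0 and 3 UMIs, and in basophil progenitor (BaP)-like nuclei, at 0 and 4.59 CPM from 0 UMIs and 1 UMI, also with overlapping intervals. The libraries were put in no group, and a difference between 2 single libraries has no replicate error.

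Slfn9, the neighbour of Slfn8, had 138 and 141 UMIs, or 13.4 and 11.2 CPM. It was highest in cMoP-like nuclei in both libraries, at 44.4 CPM (12.1 to 114) and 29.3 CPM (6.03 to 85.5), but from 4 and 3 UMIs, and their intervals overlapped those of HSC-like nuclei. It stood at 22 and 15.9 CPM in HSC-like nuclei and at 12.3 and 12.9 CPM in GMP-like nuclei. Pro-NK/T-like and pDCP-like nuclei held 0 Slfn9 UMIs in both libraries, with intervals reaching 25.6 and 35.5 CPM and 52.5 and 153 CPM. NeuP-like nuclei held 1 and 2 UMIs, at 4.79 and 4.86 CPM, with intervals reaching 26.7 and 17.6 CPM. Slfn3, next to Slfn4, had 59 UMIs in each library, and 18 of those in library 1 came from pro-B-like nuclei, at 11.7 CPM (6.94 to 18.5). In library 2 the same class held 4 Slfn3 UMIs, at 6.1 CPM (1.66 to 15.6). Pro-NK/T-like nuclei stood at 13.9 and 9.63 CPM from 2 UMIs and 1 UMI. The highest Slfn3 levels of library 2 were 41.5 CPM in pDCP-like nuclei, from 1 UMI, and 19.5 CPM in cMoP-like nuclei, from 2 UMIs, and both classes held 0 in library 1. Of the 50-base stretches in the Slfn9 gene 10.2% occur more than once in the locus, as do 7.21% of those in Slfn8. In each other member the share was at most 3.02%. A read that lies wholly in such a repeated stretch cannot be placed at 1 position.

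By the rule of at least 2-fold higher in both libraries, among genes of at least 30 UMIs, 3 of 7 members (Slfn1, Slfn2, Slfn4) were called in NeuP-like nuclei, where 3.38% of 11776 genes were. In cMoP-like nuclei 5 of 7 were called (Slfn1, Slfn2, Slfn5, Slfn8, Slfn9), where 4.38% of genes were. In pro-NK/T-like nuclei 3 were called (Slfn2, Slfn3, Slfn8) against 5.77% of genes, and in pDCP-like nuclei 2 (Slfn2, Slfn8) against 3.61%. The members were chosen on these levels, so nothing is read from the counts. Slfn8 in cMoP-like nuclei rested on 5 and 1 UMIs, and the calls in pDCP-like nuclei on 1 or 2 UMIs per library.

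The chromatin of the locus followed several patterns. At least 2-fold higher counts in both libraries were found in NeuP-like nuclei at 10 of the 39 peaks (25.6%), where 3.52% of 174265 peaks of at least 50 counts were called. In cMoP-like nuclei 4 peaks were called against 3.36%, in pro-NK/T-like nuclei 5 against 3.98%, in pro-B-like nuclei 2 against 5.92% and in HSC-like nuclei 0 against 3.3%. Peaks of 1 locus are not independent of each other. In 1 of the 10, chr11:83126188-83127047, 93.5% of the 50-base stretches occur more than once in the locus.

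**Figure D2:**
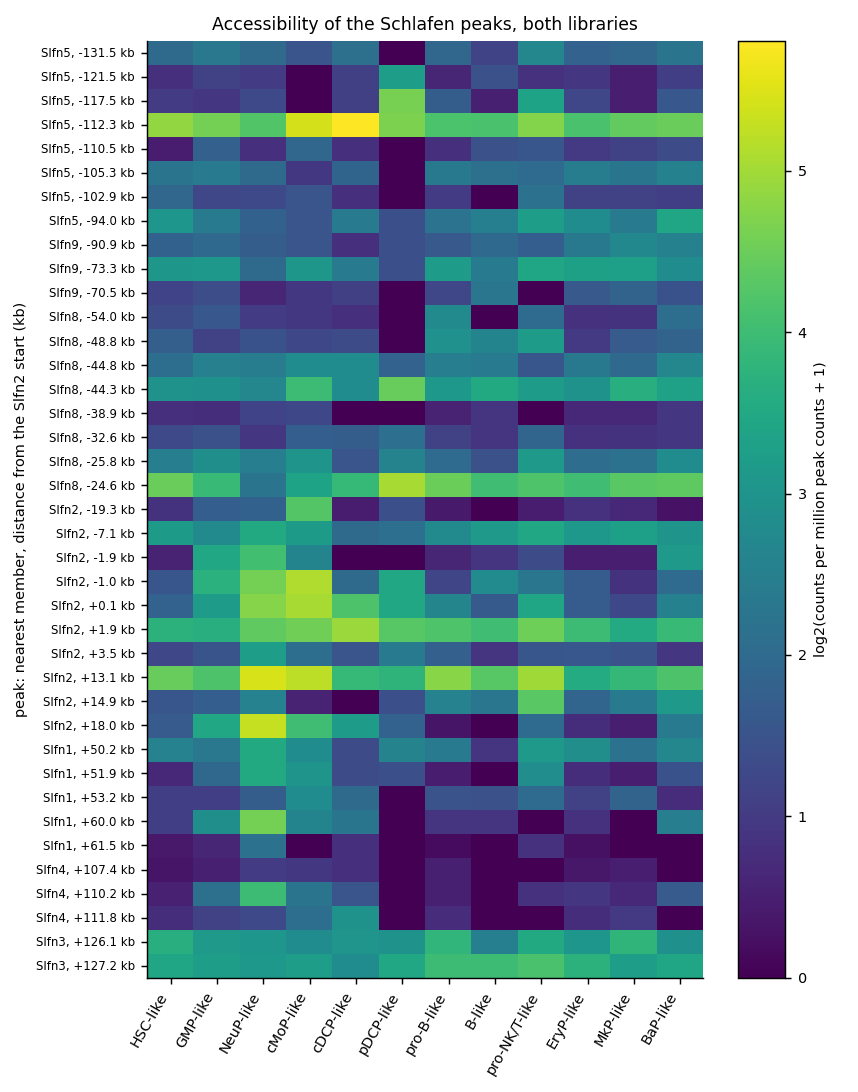
Accessibility of the 39 peaks (rows, by nearest member and distance from the Slfn2 start in kb) in the 12 named classes (columns), as log2 of ATAC CPM plus 1 over both libraries. The Slfn5 start peak is open in every class, whereas the start peaks of Slfn2 and Slfn1 are brightest in NeuP-like and cMoP-like nuclei. The peak over the Slfn4 start is brightest in NeuP-like nuclei, and the second peak of its start interval in cDCP-like nuclei.

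The peak over the Slfn4 start (chr11:83174818-83175706) was most open in NeuP-like nuclei, at 11.9 ATAC CPM (6.44 to 20.2) in library 1 and 16.6 (11 to 23.9) in library 2. That was 8.54-fold and 7.01-fold over the other nuclei. GMP-like nuclei held 1.96 and 4.24 ATAC CPM at this peak and HSC-like nuclei 0.39 and 0.481. The start peak of Slfn1 (chr11:83116533-83117401) stood at 5.74 and 13.9 ATAC CPM in NeuP-like nuclei at 11 and 2.85 in cMoP-like nuclei and at 4.31 and 9.39 in pro-NK/T-like nuclei, an order that was not the same in both libraries. The start peak of Slfn2 (chr11:83064780-83065560) stood at 33.1 and 31.3 ATAC CPM in cMoP-like nuclei and at 22.1 and 28.7 in NeuP-like nuclei, against 2.34 and 2.76 in HSC-like nuclei. The other peak within 1 kb of the Slfn2 start interval (chr11:83063734-83064445) stood at 29.6 (20.4 to 41.5) and 18.9 (13 to 26.7) ATAC CPM in NeuP-like nuclei and at 26.6 (14.7 to 44.3) and 40.8 (25.4 to 62.1) in cMoP-like nuclei, with overlapping intervals in each library. GMP-like nuclei held 10.7 and 12.6 ATAC CPM there, and HSC-like nuclei 1.69 and 2.16.

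5 further peaks, named after their values were seen, are described because 1 or 2 classes led them. An intergenic peak downstream of Slfn2 (chr11:83082634-83083516) held 52.1 ATAC CPM (39.7 to 67.3) and 29 ATAC CPM (21.5 to 38.3) in NeuP-like nuclei, or 9.95-fold and 4.21-fold over the others. It was also open in cMoP-like nuclei, at 21.1 and 9.49 ATAC CPM, and in GMP-like nuclei, at 7.99 and 11.3. It held 0.173 and 0.45 ATAC CPM in pro-B-like nuclei and 0.339 and 1.16 in EryP-like nuclei. The central 300 bases of this peak are shown on the plus strand because it was the peak of the locus most open in NeuP-like nuclei after the broad one 13.1 kb past the Slfn2 start, and capitals mark a C/EBP-type match (TTGCNNAA), a motif found in 30.8% of the 39 peaks and 31.4% of all peaks.
chr11:83082925-83083224: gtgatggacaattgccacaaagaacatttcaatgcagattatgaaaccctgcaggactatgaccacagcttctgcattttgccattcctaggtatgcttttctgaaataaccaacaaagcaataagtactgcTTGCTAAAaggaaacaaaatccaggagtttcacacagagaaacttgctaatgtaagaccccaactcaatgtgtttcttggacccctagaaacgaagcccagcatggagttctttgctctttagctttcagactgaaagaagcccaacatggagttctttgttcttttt
Another intergenic peak, past Slfn1 (chr11:83124626-83125516), held 24.3 and 22.2 ATAC CPM in NeuP-like nuclei, 4.62 and 7.29 in GMP-like nuclei, 7.47 and 9.97 in the most open unnamed cluster, and 0 in pro-NK/T-like nuclei of both libraries, and 13.9% of it is repeated within the locus. A peak 1.9 kb before the Slfn2 start (chr11:83062847-83063533) was shared by NeuP-like nuclei, at 14.6 and 16.3 ATAC CPM, and GMP-like nuclei, at 10.9 and 9.88.

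The other leading classes differed. A peak 19.3 kb before the Slfn2 start (chr11:83045317-83046215) held 12.9 and 23.7 ATAC CPM in cMoP-like nuclei and at most 2.96 ATAC CPM in each other named class. A peak 14.9 kb past that start (chr11:83079601-83080412), between the broad peak and the NeuP-like one, held 14.2 (7.2 to 25) and 27.1 (14.4 to 46.4) ATAC CPM in pro-NK/T-like nuclei. BaP-like nuclei held 10.8 (5.61 to 18.9) and 4.68 (1.62 to 10.5) there, intervals that overlapped those of pro-NK/T-like nuclei in library 1 and not in library 2, and cMoP-like nuclei held 0 and 0.949.

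**Figure D3:**
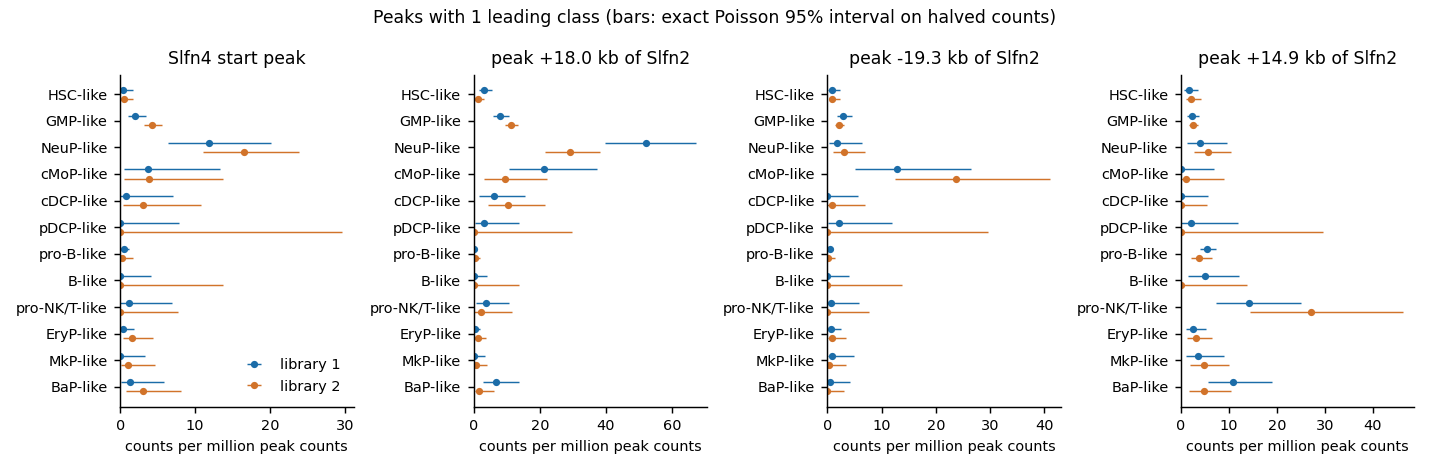
ATAC CPM (x axis) by class (y axis) at 4 peaks, with library 1 in blue, library 2 in orange and exact Poisson 95% intervals on halved counts. The first pair of panels is led by NeuP-like nuclei, the third by cMoP-like nuclei and the fourth by pro-NK/T-like nuclei.

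The main start peaks of Slfn5 and Slfn3 held counts in every named class of each library. At the Slfn3 peak, B-like and pDCP-like nuclei of library 2 each held only 2 counts in 1 nucleus. The Slfn5 start peak (chr11:82952359-82953176) was highest in cDCP-like nuclei, at 54.1 and 55.9 ATAC CPM, and lowest at 14.2 in EryP-like nuclei of library 1 and 7.46 in B-like nuclei of library 2. Second were cMoP-like nuclei in library 1, at 49.6, and pDCP-like nuclei in library 2, at 48.3. The Slfn3 start peak (chr11:83190802-83191683) stood at 13.2 and 12.9 ATAC CPM in pro-B-like nuclei, and the median of the named classes was 6.96 and 8.25. MkP-like nuclei were highest there in library 2, at 18.7 (12.2 to 27.4), and stood at 5.73 (2.21 to 12.1) in library 1. The peak next to it (chr11:83191846-83192703) was highest in pro-NK/T-like nuclei in library 1, at 21.6 ATAC CPM, and in B-like nuclei in library 2, at 16.8, with pro-B-like nuclei second in both libraries, at 15.1 and 14.3. Of the peaks away from a start, the broad peak 13.1 kb past the Slfn2 start (chr11:83077801-83078709) held 54.4 and 35.8 ATAC CPM in NeuP-like nuclei, 34 and 38.9 in cMoP-like nuclei and 19.8 and 21.9 in HSC-like nuclei. Pro-NK/T-like nuclei were second at this broad peak in library 2, at 36.5. An intron peak of Slfn2 (chr11:83066606-83067399) was highest in cDCP-like nuclei, at 25.9 and 32.8 ATAC CPM. Second at this intron peak were cMoP-like nuclei in library 1, at 24.8, and pDCP-like nuclei in library 2, at 24.1. A peak beside the start of the pseudogene Slfn10-ps (chr11:83040079-83040959) was lowest in NeuP-like nuclei, at 2.65 and 4.44 ATAC CPM. It was highest in pDCP-like nuclei, at 32 and 32.2. Second there were MkP-like nuclei in library 1, at 24.2, and HSC-like nuclei in library 2. HSC-like nuclei stood at 22.1 and 20.7. The Slfn9 start peak (chr11:82991421-82992164) held 7.01 and 7.05 ATAC CPM over all nuclei, and the peaks at the Slfn8 start (chr11:83020104-83020426 and chr11:83020531-83021145) held 5.39 and 4.25 and 8.94 and 8.5 ATAC CPM. A peak inside Slfn8 (chr11:83015859-83016756) held 7.2 and 5.25 ATAC CPM in pro-B-like nuclei and 10.5 and 4.17 in pro-NK/T-like nuclei, and a second peak of the Slfn5 start interval (chr11:82954199-82955023) held 1.45 and 1.62 over all nuclei. A second peak of the Slfn4 start interval (chr11:83176453-83177394) was highest in cDCP-like nuclei, at 9.14 (3.35 to 19.9) and 4.47 (0.922 to 13.1) ATAC CPM, from 12 and 6 counts. These intervals overlapped those of cMoP-like nuclei in library 1 (1.55 to 17.5) and MkP-like nuclei in library 2 (0.299 to 5.77). The lead of cDCP-like nuclei over these classes was not resolved there. Just inside the 20 kb limit the peaks held 2.2 and 18.1 ATAC CPM in library 1, and the nearest peaks outside it, 27.5 and 28.9 kb away, held 3.46 and 0.617.

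RNA and start peaks were set side by side over 24 points, the 12 named classes in each library. Pearson r of log2(value + 1) was 0.76 for Slfn4, 0.75 for Slfn2 and 0.56 for Slfn1, and 0.14 to 0.40 for Slfn3, Slfn5, Slfn8 and Slfn9. The points share nuclei, libraries and depth, so these are descriptions.

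**Figure D4:**
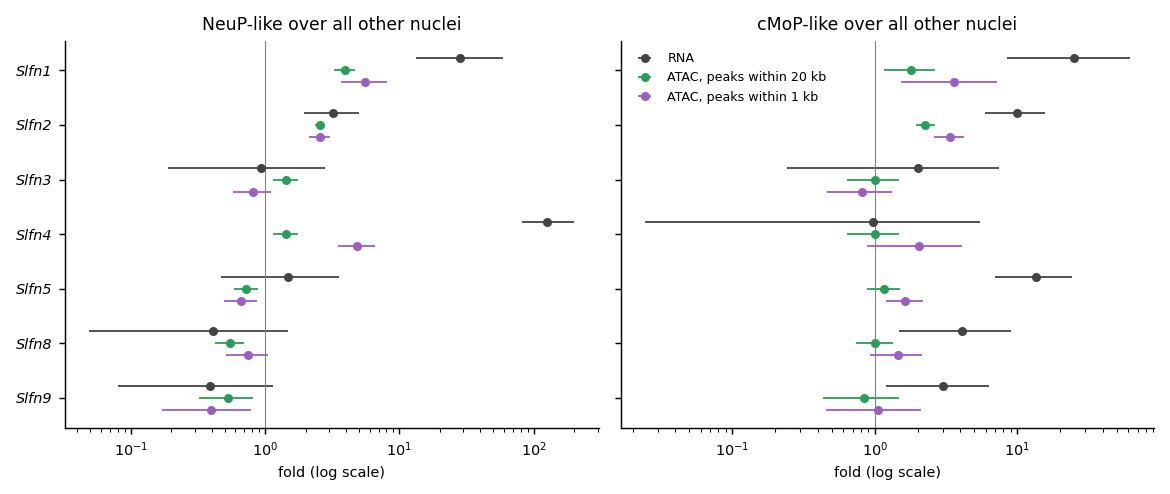
Fold of each member in NeuP-like (left) and cMoP-like nuclei (right) over all other nuclei, on a log axis, for RNA, for peaks within 20 kb and for peaks within 1 kb, both libraries summed, with exact 95% intervals. Slfn4 RNA is at 126-fold in NeuP-like nuclei, and its peaks within 1 kb are at 4.84-fold.

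Summed over both libraries, RNA folds in NeuP-like nuclei were larger than peak folds for Slfn1 (28.3 against 3.91) and Slfn4 (126 against 1.44), whereas for Slfn2 (3.2 against 2.56) the intervals overlapped. Among nuclei of at least 500 genes the Slfn4 intervals stayed apart, at 48.4 (17.8 to 121) for RNA and 0.932 (0.48 to 1.63) for peaks. Those of Slfn1 then overlapped, at 25.9 (2.63 to 136, from 2 UMIs) and 2.61 (1.54 to 4.16), and the Slfn2 RNA fold was 2.57 (0.521 to 7.71, from 3 UMIs). Slfn3 and Slfn4 share the same 5 peaks within 20 kb, so their peak folds are 1 value. Of the 5542 counts there, 2288 and 2238 lie in the 2 peaks at the Slfn3 start, at 0.761 and 0.857-fold in NeuP-like nuclei. With peaks within 1 kb the Slfn4 fold was 4.84 (3.49 to 6.58), so 1.44 and 0.932 do not describe the Slfn4 start alone. In NeuP-like nuclei the Slfn5, Slfn8 and Slfn9 peaks were lower, at 0.722, 0.545 and 0.528-fold. Lower counts were common in this class. By the rule of at least 2-fold lower in both libraries, 30.8% of all 174265 peaks were called, and 2 of the 39 peaks (5.13%). Among nuclei of at least 500 genes the folds of Slfn5, Slfn8 and Slfn9 were 1.11 (0.75 to 1.59), 0.889 (0.562 to 1.34) and 0.26 (0.0314 to 0.942, from 5 counts). The shared fold of Slfn3 and Slfn4 was 0.932 (0.48 to 1.63). The values for Slfn3, Slfn4 and Slfn5 thus crossed 1, but their intervals include 1, so their directions under this limit were not resolved.

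The genes whose levels were most like those of a member over the same 24 points were found among genes of at least 100 UMIs. For Slfn4 they were Fcnb (r = 0.82), S100a9 (0.82) and Abca13 (0.81), and for Slfn2 Gm26740 (0.86), Coro1a (0.77) and Gas7 (0.75). Mitf (0.80) and Ttll3 (0.78) were among the closest to Slfn5, and Slfn9 was closest to 1810058I24Rik, Irak3 and Ippk (0.81, 0.81 and 0.80), Slfn8 to Eif2ak3, Cd2ap and Trim12a (0.75, 0.74 and 0.74) and Slfn3 to Armc7, St3gal6 and Hras (0.83, 0.72 and 0.69). The highest r of all such genes were taken, so high values follow from the choice and nothing is read from them. S100a9 is also a marker that named the NeuP-like class. Slfn3 and Armc7 had only 118 and 107 UMIs in all nuclei.

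Of the interferon pathway list, 33 of 35 genes had a row and 29 had at least 30 UMIs. In NeuP-like nuclei 3 of the 29 were at least 2-fold higher in both libraries (Oas3, Rsad2, Ddx58) and 2 were lower, where 3.38% of all 11776 genes were higher and 25.1% lower, with a median log2 ratio of -0.24 beside -0.64 over all genes and 0.49 over the 7 members. In cMoP-like nuclei 3 were higher (Rsad2, Ifih1, Ifi204) and 7 lower, where 4.38% of all genes were higher and 32.3% lower, with medians of 0.78, -0.49 and 1.90. More of the list was higher in HSC-like nuclei, with 5 genes (Ifit1, Rsad2, Rtp4, Xaf1, Ddx58) against 4.12% of all genes, and 1 was lower there against 3.74%. In pDCP-like nuclei 5 were also higher, Trim30a, Ifnar1 and Ifnar2 among them, against 3.61%, and 9 were lower against 40.2%. The list, which includes receptor and kinase genes, summed to 503 and 333 CPM in NeuP-like nuclei, where Jak1 alone gave 125 and 58.3 CPM. It summed to 1165 and 556 CPM in cMoP-like nuclei, 835 and 480 in HSC-like nuclei and 450 and 292 in GMP-like nuclei. Its highest sums were in pDCP-like nuclei (1866 and 789 CPM), followed by pro-NK/T-like nuclei (1340 and 780 CPM). The members summed to 345 and 175 CPM in NeuP-like nuclei and to 300 and 273 CPM in cMoP-like nuclei. Slfn4 alone gave 245 and 107 CPM of the member sums in NeuP-like nuclei. Of the 5 listed genes with the most UMIs, the kinase gene Jak1 was highest in pro-NK/T-like nuclei (583 and 385 CPM), and the receptor gene Ifnar2 in pDCP-like nuclei (328 and 166 CPM). In NeuP-like nuclei Trim30a stood at 24 and 36.5 CPM and Ifi203 at 28.8 and 9.72 CPM.

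Neighbouring genes on chromosome 11 were near the detection limit. Slfn14 had 1 and 0 UMIs, Slfn5os 1 and 9, Unc45bos 6 and 12, 1190001M18Rik 1 and 1, and Gm20234, which overlaps Slfn2 on the opposite strand, 8 and 11. The Schlafen-like gene Slfnl1, on chromosome 4, had 3 and 2 UMIs.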

How the data were processed

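Nuclei of lineage-negative, cKit-positive bone marrow cells were profiled with a multiome kit, and the authors deposited raw counts per feature (UMIs for genes, ATAC counts for peaks), made with Cell Ranger ARC 2.0.0 on GRCm38 (mm10). Per the labels, Seurat 4.0.3 and Signac 1.3.0 were also used. The members and gene lists were chosen with earlier results of these data known. Barcodes with at least 200 genes and 1000 to 50000 counts in peaks were kept (13619). Of nonzero peak entries 82.5% were even, so ATAC intervals used halved counts.

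RNA (3000 variable genes, 30 components) and ATAC (components 2 to 30, peaks in at least 20 nuclei) were corrected between libraries and clustered by weighted nearest neighbours at resolution 0.8 without the Schlafen features (Seurat 5.3.0, R 4.3.3). A class name needed at least 3 markers with a log2 ratio of at least 1 and 10 counts, and a marker among the 10 leading genes. Doublets were not removed, and an alternative removed the top 8% of scores. Classes were summed per library (SciPy 1.17.1). No test was run, since each label group is 1 sample and the labels assign neither library to a group. Intervals are exact Poisson or Clopper-Pearson at 95% and cover counting error only. The rule for the fold calls was also run on simulated counts as a check of the code, and its outcome is not reported here. Named genes were the 7 members, the genes of the locus, the 5 interferon list genes with most UMIs and, for each member of at least 100 UMIs, the 3 genes most like it, and named peaks were those within 1 kb of a start and the 3 others with most counts, apart from those said to be chosen after their values were seen. Some genes that this rule names are not reported here.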

Additional observations from a re-analysis of the deposited data

How the results depend on the processing

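Each fold of a member in NeuP-like or cMoP-like nuclei over all other nuclei, summed over both libraries, was recomputed under the alternatives, and 145 of 168 values stayed within the counting interval of the value reported. At resolution 0.4 both classes held the same 468 and 136 nuclei, so its 28 values equal those reported and are not in this count. Schlafen features kept among those clustered, no correction between libraries, removal of 1091 nuclei with the highest doublet scores, the ribosomal locus out of the totals and ATAC limits on halved counts moved none of the NeuP-like folds beyond it. With at least 500 genes per nucleus, which left 52 of 468 NeuP-like nuclei, the Slfn4 RNA fold was 48.4, and the ATAC folds were 2.61 for Slfn1, 2.05 for Slfn2, 0.889 for Slfn8 and 0.26 for Slfn9. Under this limit the shared ATAC fold of Slfn3 and Slfn4 went from 1.44 to 0.932 (0.48 to 1.63). That of Slfn5 went from 0.722 to 1.11 (0.75 to 1.59), and these intervals include 1. The RNA folds of Slfn3 (0.935 to 1.24), Slfn5 (1.48 to 2.88) and Slfn9 (0.389 to 1.05) then rested on 1 or 2 UMIs in NeuP-like nuclei. With peaks within 1 kb, the NeuP-like ATAC folds were 5.53 for Slfn1, 4.84 for Slfn4 and 0.748 for Slfn8. That of Slfn3 was 0.809 (0.581 to 1.1), since Slfn3 then no longer shares the peaks at the Slfn4 start. With counts in promoter peaks as the denominator, the Slfn2 ATAC fold was 2.16 against 2.56. Of the cMoP-like folds, 5 moved with at least 500 genes, among them Slfn4 RNA from 0.971 to 8.2 on 1 UMI and Slfn3 RNA from 2.03 to 0 on 0 UMIs, and 5 with peaks within 1 kb. The causes of the other shifts were not tested. No paired analysis was made because the libraries were put in no group, and no result comes from a test. Folds that rest on fewer than 10 UMIs, such as those of Slfn8 and Slfn9 in cMoP-like nuclei, are limited by depth.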

Other observations

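The widest stretch of the locus without a peak, chr11:83127048-83172072, spans 45025 bp between Slfn1 and Slfn4. Within it, 97.6% of 50-base stretches occur more than once in the locus. The peaks at its edges are also repeated, at 93.5% on the Slfn1 side and 39.2% on the Slfn4 side. A read wholly inside such a stretch cannot be placed at 1 position, and the part of this in the absence of peaks was not tested.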
